A study of Mus musculus with 384 samples.

Results

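The paraventricular nucleus of the hypothalamus (PVN) was examined in 30 targeted RNA libraries, out of 380 libraries with values from 12 brain regions of 32 male Balb/c mice. Members were chosen by their region label alone, that is, all samples labelled PVN that have values, and 30 of the 32 labelled PVN samples do. They comprise 8 mice labelled Co naive, 8 labelled Co inject, 7 labelled MS naive and 7 labelled MS inject, with 1 PVN punch per mouse, so the 4 label groups hold different animals. The labels do not spell out MS, Co, inject or naive, and give no genotype, agent or dose. They name a region Pit and no nucleus accumbens, whereas the regions of the study include the nucleus accumbens and no Pit. They state postnatal day 9, whereas the study describes adult males that had been reared with early handling or with limited bedding and nesting material and were later housed with an ovariectomized female or exposed to social defeat. Neither source pairs the names, and no label group was assigned to a rearing or housing condition. Every difference below is therefore a difference between labels.

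The PVN holds the neurons that release corticotropin-releasing hormone and so start the hormonal stress axis that ends in glucocorticoid secretion by the adrenal gland. Glucocorticoids act back on the PVN, among other sites, through the glucocorticoid receptor, a ligand-activated transcription factor encoded by *Nr3c1*. HSP90 (*Hsp90aa1*) holds the unliganded receptor ready for hormone, and FKBP51 (*Fkbp5*), a glucocorticoid-induced co-chaperone, lowers its affinity for hormone. Most genes of the panel are mouse orthologues of human genes at which a variant modulates the transcriptional response to glucocorticoids and is associated with major depressive disorder (MDD) or schizophrenia (SCZ).

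Each assay amplifies a short stretch of a chosen transcript, and the assay's name carries a pair of exon numbers. Read as numbers counted from 0 along the genome, the pair ran in transcript order for 68 of 68 assays with a pair, and both numbers lay within the matched transcript for 66. The junctions named for the genes with the smallest p-values for status (*Gart*) and injection (*Timm23*), and for 2 genes that recur below (*Fkbp5*, *Peli1*), are shown so that it is clear which part of each transcript was counted. The sequence is that of the mouse genome build GRCm38 with the GENCODE M21 annotation, 15 bases of the upstream exon in lower case and 15 bases of the downstream exon in capitals. The primers and the amplified stretch itself were not analysed here.
*Timm23*, exon 1 to 2: tggccggcgtcccgcTGACTGGTATGAACC
*Gart*, exon 2 to 3: agatctccaatgctgCTGTCTCTGTCAATG
*Fkbp5*, exon 1 to 2: cggacgcggcgacagGTCTTCTACTTACAA
*Peli1*, exon 6 to 7: cagagaggaaagatgGTGGAAATTGAAACC
*Timm23* lies on the minus strand of chromosome 14 (32180162 to 32201898) and *Gart* on the minus strand of chromosome 16 (91621186 to 91646952). *Fkbp5* lies on the minus strand of chromosome 17 (28399094 to 28517527) and *Peli1* on the plus strand of chromosome 11 (21091291 to 21150323).

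PVN libraries held between 59451 and 209996 reads on the 69 assays, and 123975 in the median library. By label group, medians were 107546 for Co naive, 104292.5 for Co inject, 125295 for MS naive and 155037 for MS inject. Fewer than 80000 reads were found in 7 libraries, 5 of the 15 inject and 2 of the 15 naive, or 4 of the 14 MS and 3 of the 16 Co. These shallow libraries had a median of 9 assays without a read, against 5 in the other 23. Among the 60 assays with a PVN median of at least 20, a value under an eighth of the median occurred 40 times, and 22 of these were in the 7 shallow libraries. An assay at 0 had a value below 2.07 to 7.70, depending on the library, which is what 3 reads are worth and covers counting error only. Values are therefore less certain in the shallow libraries, and differences of the leading genes that moved by more than 1.5 times without these libraries are given both ways.

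**Figure D1:**
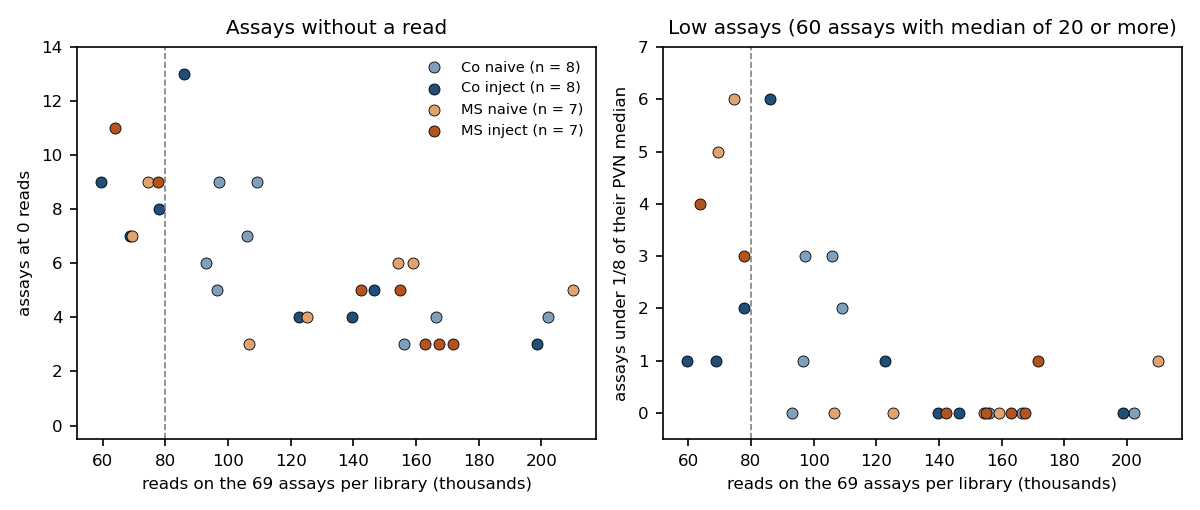
Reads per PVN library against the number of the 69 assays at 0 (left) and against the number of assays under an eighth of their PVN median (right), each point 1 library coloured by label group, with a dashed line at 80000 reads. The 7 libraries left of the line have 7 to 11 assays at 0, and the Co inject library with 13 assays at 0 has 85930 reads.

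The region label could not be checked against defining markers, since the panel holds 0 of 6 markers of PVN neurons (such as *Avp*, *Oxt* and *Crh*) and 0 of 19 markers of other brain cells. Across the 60 assays, PVN libraries correlated with each other at a median Pearson's r of 0.907 (435 pairs), with dorsal CA1 (dCA1) libraries at 0.900 and with ventral CA1 (vCA1) libraries at 0.908. Against the 11 other regions the medians ran from 0.817 (Pit) to 0.919 (cerebellum), and those of cerebellum, dorsal CA3 (0.911) and vCA1 were above that within PVN. These values are across genes of the same panel, which all libraries share, and are given as a description. The nearest region mean was that of PVN for 12 of the 30 libraries, that of dCA1 for 7, that of vCA1 for 4 and that of another region for 7 (3 of them dorsal CA3). Of the 32 libraries labelled dCA1, 10 were nearest to the PVN mean and 4 to their own, and of the 32 labelled vCA1, 4 were nearest to PVN and 18 to their own. By this overall likeness the libraries labelled PVN were set apart neither from those labelled CA1 nor from several other regions. Libraries were prepared on plates that each held several regions, and the plate of a sample is not given in the sources used here. Whether region labels were exchanged between samples was not tested. Labels were used as given, so each PVN value and each difference between PVN and CA1 is that of the libraries so labelled.

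Within PVN, *Ociad2*, whose product is a mitochondrial membrane protein, had separate ranges. It lay between 692 and 1492 in 7 libraries and between 2054 and 3681 in 23. The lower range was found in 2 Co naive, 2 Co inject, 2 MS naive and 1 MS inject library, so each label group held some, and 5 of its 7 libraries were among those under 80000 reads. Among the 51 assays with a PVN median of at least 100, medians of the libraries in the lower range were more than 1 log2 unit below those in the upper range for 5 assays (*Ociad2*, *Pds5a*, *Fth1*, *Pitpnm2* and *Nedd4l*) and above them for 2 (*Tmem176a* and *Anxa2*). *Fth1*, the heavy chain of the iron store ferritin, had a median of 27578 in the lower range and 68178 in the upper. *Tmem176a*, a membrane protein of immune cells among others, had 544 and 158, and *Anxa2*, a calcium-dependent membrane-binding protein, had 541 and 168. These libraries were divided by a measured value after it had been seen, so no test was made. Divided at the middle of the empty PVN interval, 8 of 32 dCA1 and 16 of 32 vCA1 libraries were in the lower range. What sets the ranges apart was not tested, and differences of the leading genes that moved by more than 1.5 times without these libraries are given both ways.

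**Figure D2:**
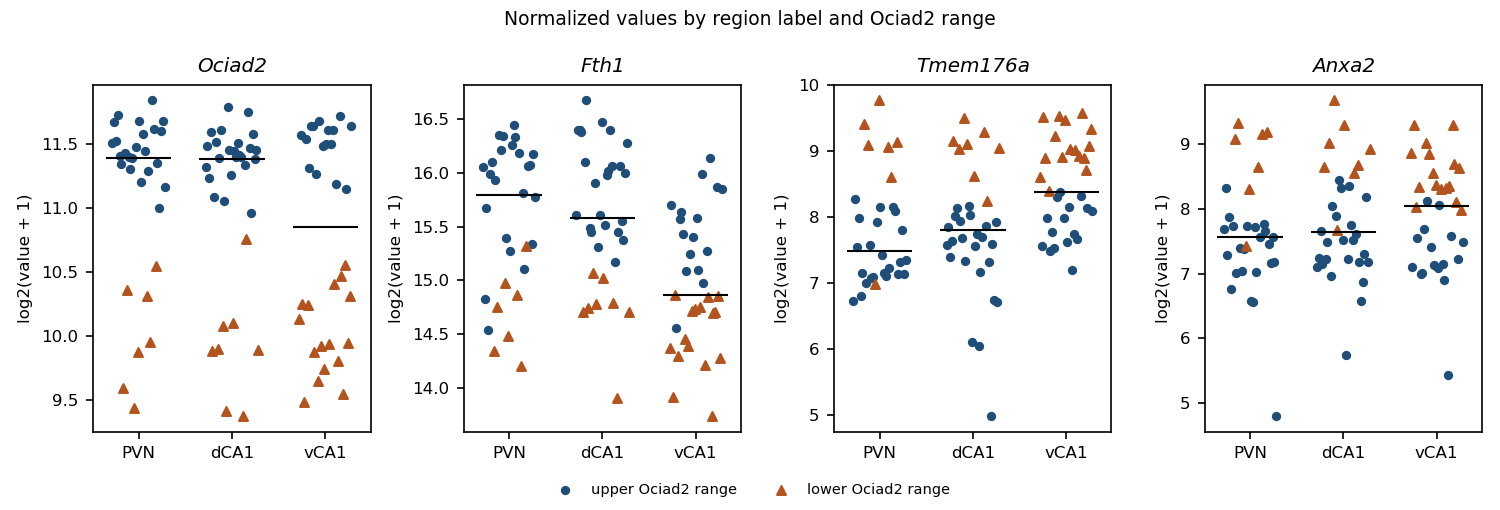
Normalized values of *Ociad2*, *Fth1*, *Tmem176a* and *Anxa2* as log2(value + 1) in every PVN (n = 30), dCA1 (n = 32) and vCA1 (n = 32) library, triangles for the lower and circles for the upper range of *Ociad2*, with a line at the region median. In all 3 regions most triangles lie low for *Fth1* and high for *Tmem176a* and *Anxa2*, and triangles make up 16 of 32 vCA1 but 7 of 30 PVN libraries.

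Values are reads per assay divided by a size factor. Primer pairs differ between assays, so the order of values is an order of assay signal and not of transcript abundance. *Fth1* had the highest PVN median at 57003 (18815 to 89219 over 30 libraries), followed by *Hsp90aa1* at 20663 (6969 to 43307) and *Rps12*, a protein of the small ribosomal subunit, at 15927 (13284 to 23196). Median values reached 100 for 51 of 69 assays and 1000 for 12. A median of 0 was found for 5, namely *Lcn2* (an iron-siderophore binding protein of acute inflammation), *Nuak2* (a kinase), *Zfp553* (a zinc finger protein), *Fan1* (a DNA repair nuclease) and *Tnf* (tumor necrosis factor). *Nuak2* had 4 reads in all PVN libraries together and was at 0 in 28 of 30, so no change in it was detectable at this depth. *Lcn2* was at 0 in 18 libraries but reached 178.

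The spread within label groups set what could be seen. The pooled within-group standard deviation (SD) of log2(value + 1) had a median of 0.61 over all assays, and it was 0.52 for assays with a median of at least 100 and 1.71 for the 18 others. *Atp5f1*, a subunit of the mitochondrial ATP synthase, varied least (SD 0.18), and *Rps25* had an SD of 0.20. The most variable assays with a median of at least 100 were *Abcf1* (a translation factor, SD 1.93, at 0 in 2 libraries), *Slco3a1* (an organic anion transporter, 1.26), *Pds5a* (a cohesin regulator, 1.23), *Ccndbp1* (a cyclin D-binding protein, 1.05) and *Anxa2* (0.96). Values of *Abcf1* ranged from 0 to 189, and those of *Atp5f1* from 10802 to 16506.

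*Nr3c1*, the receptor gene, gave no call for any label. Its values were 195 to 480 with a median of 316 in Co naive, 267 to 467 with a median of 353 in Co inject, 176 to 379 with a median of 338 in MS naive, and 281 to 558 with a median of 314 in MS inject. All 4 ranges overlapped. The difference between MS and Co was -0.021 on the log2 scale (95% interval -0.30 to 0.25; adjusted p = 0.955, limma), that between inject and naive was 0.16 (-0.11 to 0.44; adjusted p = 0.696), and the interaction was 0.087 (-0.46 to 0.64; adjusted p = 0.987). The intervals leave room for a status or injection difference of less than 0.5 log2 units. The sign of the status difference turned when all libraries were rescaled to the same total (0.026), and that of the interaction without the shallow libraries (-0.054). The status difference was -0.12 both without the shallow libraries and without the lower *Ociad2* range, and the interaction was 0.18 without that range. The injection difference of *Nr3c1* was 0.067 with library weights and 0.097 without the MS naive library of mouse 107.

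*Hsp90aa1* lay between 14819 and 32779 in Co naive, 14071 and 43307 in Co inject, 7439 and 23245 in MS naive, and 6969 and 30296 in MS inject. The ranges overlapped, and the lowest values were in MS libraries. The status difference was -0.24 (-0.65 to 0.17; adjusted p = 0.953) and was -0.037 without the shallow libraries, -0.012 without the lower *Ociad2* range and -0.13 without the MS naive library of mouse 105 alone. The injection difference of -0.030 (SE 0.20) was -0.15 and -0.20, respectively, without these and turned to 0.076 with library weights. The interaction was -0.18 (SE 0.40), and -0.56 without the lower *Ociad2* range (adjusted p = 0.979).

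To ask which genes differed with the MS label, MS and Co were compared over both injection labels. With limma on log2(value + 1), 0 of 69 assays passed an adjusted p of 0.1 (Benjamini-Hochberg over the 69; percent called 0%), and the smallest adjusted p was 0.953. An unadjusted p under 0.05 was found for 1 assay (1.45%). Differences were positive for 32 assays and negative for 37, with a median of -0.020, and the 95% interval lay within 1 log2 unit of 0 for 48 of 69. A status difference larger than 2-fold was thus outside the interval for these 48, while for the 21 others it was not.

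*Gart*, a trifunctional enzyme of purine synthesis, had the smallest p for status. It lay between 139 and 278 with a median of 194 in Co naive, between 123 and 205 with a median of 183 in Co inject, between 116 and 180 with a median of 160 in MS naive, and between 126 and 183 with a median of 155 in MS inject. All ranges overlapped, yet 0 of 14 MS libraries lay above the Co median. The difference was -0.27 (SE 0.11, 95% interval -0.49 to -0.043), a fold of 0.83, with an unadjusted p of 0.0213 and an adjusted p of 0.953. Without the shallow libraries it was -0.20 (adjusted p = 0.760). In such tissue punches, fewer cells of a type and less RNA per cell cannot be told apart.

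*Zfp641*, a zinc finger protein, lay between 14.1 and 193 with a median of 50.4 in Co and between 0 and 99.9 with a median of 29.7 in MS, a difference of -0.96 (SE 0.50). It shrank to -0.57 without the MS inject library of mouse 85, in which *Zfp641* was at 0, and to -0.56 without the shallow libraries. *Commd1*, which takes part in copper handling and in the turnover of NF-kappaB, had medians of 706 in Co and 783 in MS and a difference of 0.22 (SE 0.11), which was 0.12 without the shallow libraries and 0.020 without those in the lower *Ociad2* range. *Peli1*, a ubiquitin ligase of innate immune signalling, had medians of 314 in Co and 386 in MS. Its difference was 0.40 (SE 0.22), 0.20 without the shallow libraries, 0.16 with library weights and 0.13 without the lower *Ociad2* range. *Peli1* in the shallow MS libraries had a median of 595 against 386 in the deeper ones. *Rela* (listed as RELA), the p65 subunit of NF-kappaB, had medians of 130 and 182 and a difference of 0.56 (SE 0.32), which was 0.36 without the shallow libraries. None of these 4 passed the adjustment (adjusted p = 0.953 each).

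To ask which genes differed with the inject label, inject and naive were compared over both status labels. Again 0 of 69 assays passed (percent called 0%), with a smallest adjusted p of 0.276. An unadjusted p under 0.05 was found for 4 assays (5.8%), 2 with a positive (2.9%) and 2 with a negative difference (2.9%). Differences were positive for 34 and negative for 35 with a median of -0.0040, and the 95% interval lay within 1 log2 unit of 0 for 47.

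*Timm23*, a channel-forming subunit of the translocase that imports proteins into mitochondria, had the smallest p of all assays and terms. It lay between 235 and 334 with a median of 260 in Co naive and between 238 and 577 with a median of 382 in Co inject. In MS naive it lay between 178 and 334 with a median of 276, and in MS inject between 226 and 507 with a median of 334. The inject libraries spread to higher values in both status labels but overlapped the naive libraries at the lower end. Of 15 inject libraries, 12 lay above the naive median, and 0 of 15 naive libraries lay above the inject median. The difference was 0.43 (SE 0.14, 95% interval 0.15 to 0.71), a fold of 1.35 (1.11 to 1.64), with an unadjusted p of 0.00400 and an adjusted p of 0.276.

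The *Timm23* difference moved with depth. The 5 shallow inject libraries had values of 381 to 577 with a median of 490, and the 10 deeper inject libraries had 226 to 507 with a median of 300. In naive, the 2 shallow libraries had 250 and 305 and the 13 deeper libraries had 178 to 334 with a median of 263. Without the 7 shallow libraries the difference was 0.25 (adjusted p = 0.822), and with library weights it was 0.19 (adjusted p = 0.996). It passed the adjustment in 2 of 30 fits that each left out 1 mouse, without the MS inject library of mouse 93 (adjusted p = 0.0900) and without the Co inject library of mouse 235 (adjusted p = 0.0928). With 5 principal components of the residuals as covariates, which lower the residual spread by construction, its adjusted p was 0.0960. The part of depth in this difference was not tested.

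*Fkbp5* lay between 0 and 76.0 with a median of 33.6 in Co naive and between 6.72 and 156 with a median of 44.0 in Co inject. In MS naive it lay between 1.48 and 132 with a median of 43.2, and in MS inject between 44.4 and 126 with a median of 55.2. The ranges of all 4 groups overlapped, and the interaction was 0.58 (SE 1.21). The difference between inject and naive was 1.21 (SE 0.60, 95% interval -0.024 to 2.45; adjusted p = 0.696), and it was 0.78 with a pseudocount of 10, 0.88 without the shallow libraries, 0.93 without the lower *Ociad2* range and 1.09 with library weights (adjusted p = 0.996). Its smallest adjusted p among the other settings was 0.187, with 5 residual principal components. *Fkbp5* had 1536 reads over the 30 libraries, and few of these in the libraries near 0.

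*Tm2d1*, a membrane protein that binds beta-amyloid, had medians of 1554 in naive and 1700 in inject and a difference of 0.33 (SE 0.16, adjusted p = 0.696). Its naive values reached down to 500, in the Co naive group, and the difference was 0.11 without the libraries in the lower *Ociad2* range. *Zfp553* was at 0 in 12 of 15 inject and 6 of 15 naive libraries and reached 17.9. Its fitted difference of -1.39 (SE 0.55, adjusted p = 0.409) rests on a few reads, and became -0.41 with a pseudocount of 10 and -2.66 with a pseudocount of 0.1.

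**Figure D3:**
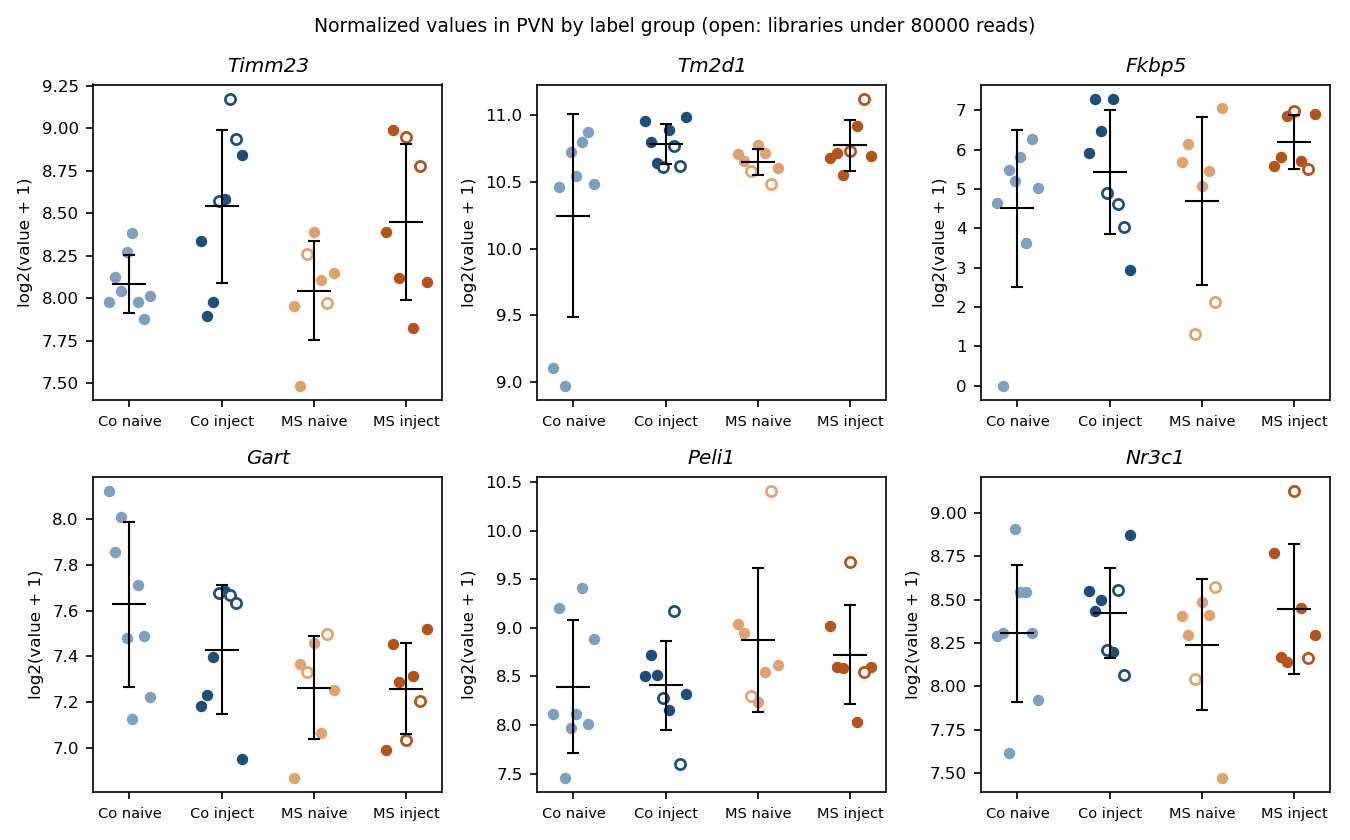
Normalized values of *Timm23*, *Tm2d1*, *Fkbp5*, *Gart*, *Peli1* and *Nr3c1* as log2(value + 1) in the 30 PVN libraries by label group, open circles for libraries under 80000 reads, with the mean and SD of each group (n = 8, 8, 7 and 7). Inject libraries spread above naive ones for *Timm23*, 0 of 14 MS libraries lie above the Co median for *Gart*, and the groups overlap for every gene shown.

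To ask whether the injection difference depended on status, the interaction was tested, that is, the injection difference in MS minus that in Co. With limma, 0 of 69 assays passed (percent called 0%), 0 had an unadjusted p under 0.05 (0%), and the smallest adjusted p was 0.964. The 95% interval lay within 1 log2 unit of 0 for 27 of 69, since the median SE was 0.44 against 0.22 for status and injection. The interaction was therefore the least precisely measured of the 3 terms.

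*Higd1a*, a hypoxia-induced mitochondrial protein, had medians of 979 in Co naive, 876 in Co inject, 851 in MS naive and 965 in MS inject, with all ranges overlapping, and an interaction of 0.35 (SE 0.21). *Commd1* had medians of 661, 764, 729 and 819 in the same order and an interaction of -0.36 (SE 0.23), which was -0.13 without the lower *Ociad2* range. *Tnf* was above 0 in 2 of 8 Co inject and 1 of 7 MS naive libraries and at 0 in all Co naive and MS inject libraries, with an interaction of -1.93 (SE 1.06), which was -2.97 without the shallow libraries (adjusted p = 0.859). *Rfx5*, a transcription factor of MHC class II genes, was at 0 in 6 of 30 libraries and had an interaction of 2.64 (SE 1.70). Adjusted p-values of these 4 were 0.964 each. For the last 2 the interval was more than 4 log2 units wide, and the value moved by more than 1.5 times with the pseudocount.

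**Figure D4:**
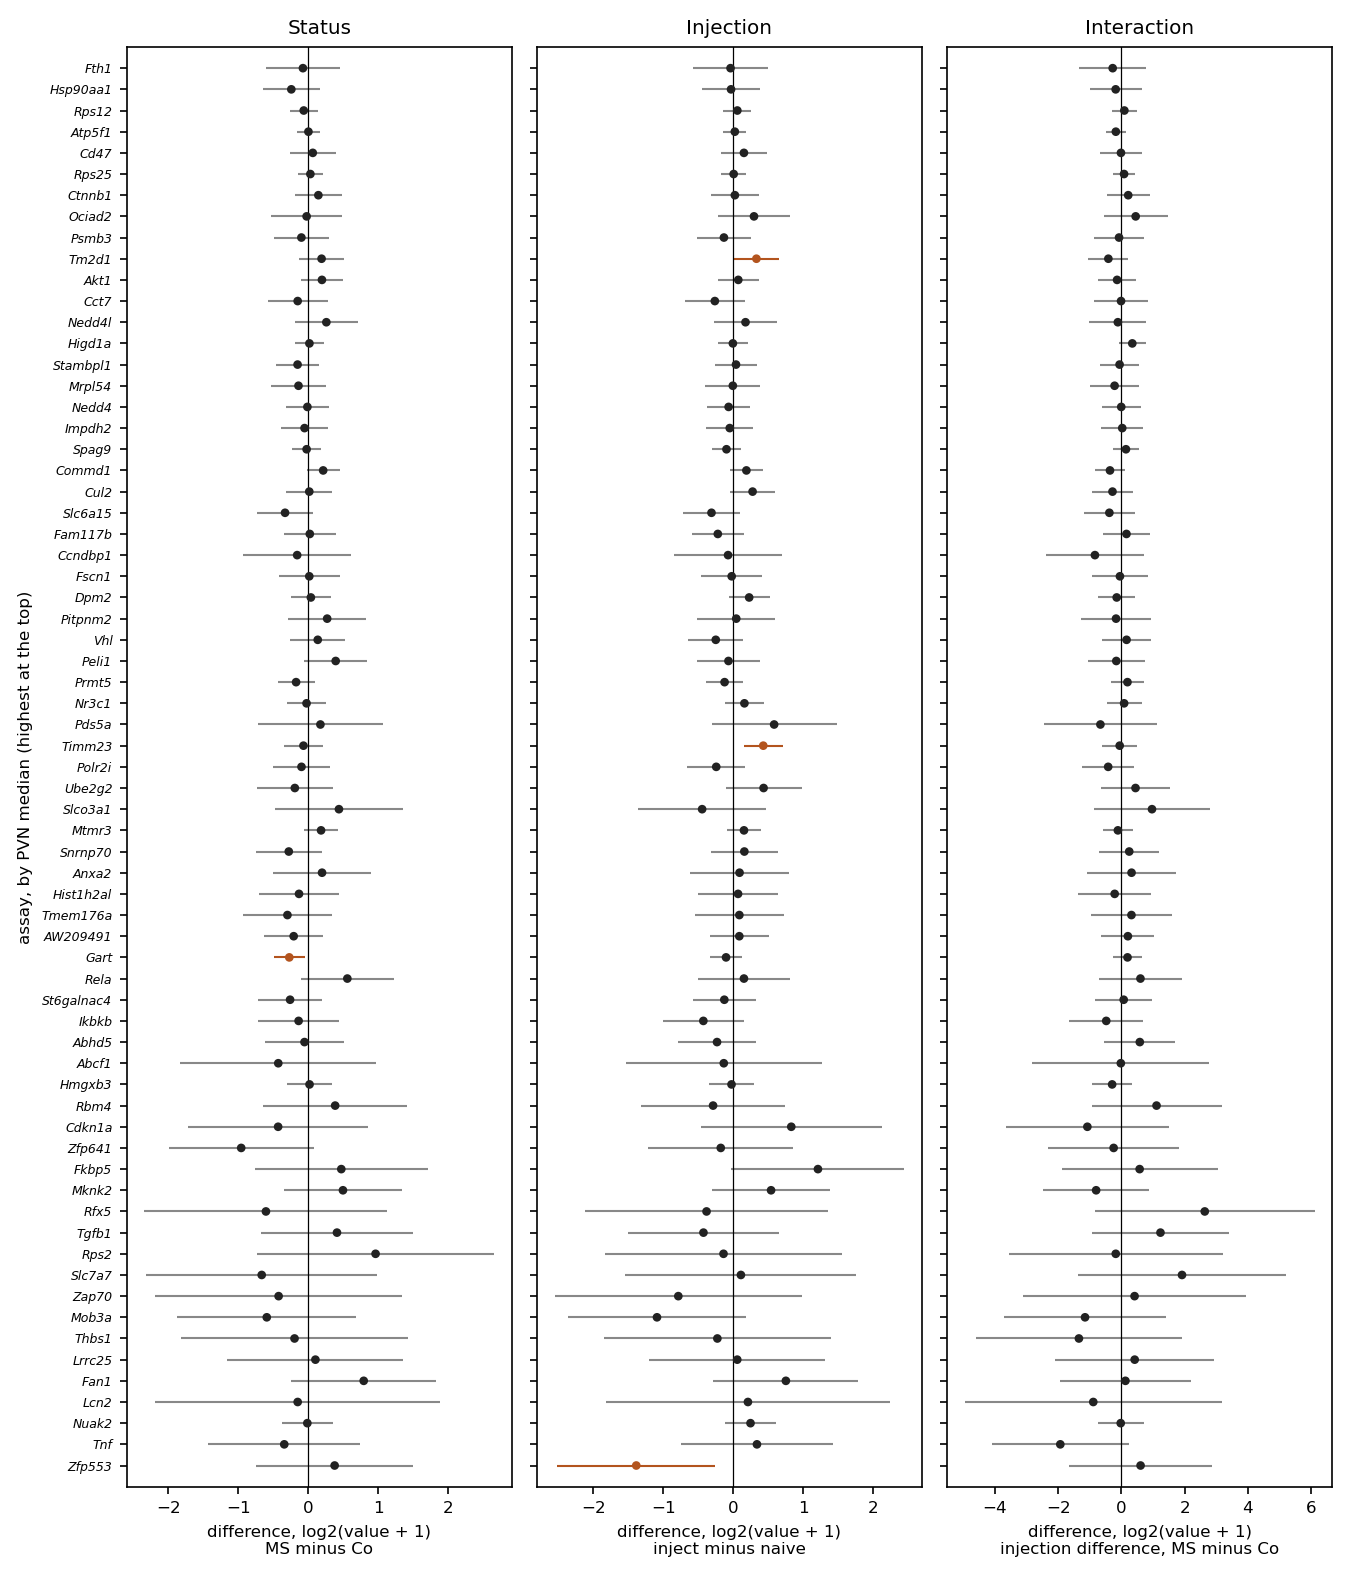
Difference (point) and 95% interval (line) on the log2(value + 1) scale for 67 of the 69 assays in PVN, ordered by PVN median with the highest at the top, for MS minus Co, inject minus naive, and the interaction. Intervals widen toward assays with low medians and for the interaction, and those in colour have an unadjusted p under 0.05 (1, 3 and 0 assays), none of which passed the adjustment.

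The panel was then read by gene list, and 0 members of any list passed for any of the 3 terms. Over all 69 assays the median difference was -0.020 for status, -0.0040 for injection and -0.013 for the interaction, and the medians of the lists are given beside these without a test. Adjusted p-values of the genes named for the lists were 0.276 or more. For the receptor and its chaperones (4 assays), medians were -0.085 for status, 0.065 for injection and 0.038 for the interaction. *Cct7*, a subunit of the cytosolic chaperonin, had the second smallest p among them for injection (-0.26, SE 0.21).

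Among 5 assays of the cytosolic ribosome and translation, the median difference was 0.033 for status and 0.0072 for injection. *Mknk2*, a kinase of the cap-binding factor eIF4E, had an injection difference of 0.54 (SE 0.41). *Rps2* had a status difference of 0.97 (SE 0.83), and *Rps12* one of -0.061 (SE 0.097). Ribosomal protein genes and *Fth1* have processed pseudogenes. Reads were aligned to the assays alone with mismatches allowed, so reads of near-identical copies may be counted for these genes.

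Among 4 mitochondrial assays, *Timm23* had the largest injection difference. The list's median injection difference was 0.0098, its lowest was -0.0046, and *Timm23* was the highest at 0.43. *Atp5f1* had an interaction of -0.17 (SE 0.16).

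Ubiquitin and proteasome genes (7 assays measured) had a median of -0.0093 for status and 0.041 for injection. *Ube2g2*, a conjugating enzyme of endoplasmic reticulum quality control, had an injection difference of 0.43 (SE 0.26). Immune and extracellular genes (9 assays) had a median of -0.19 for status, 0.091 for injection and 0.32 for the interaction, where single differences ranged from -1.93 (*Tnf*) to 2.64 (*Rfx5*). *Slc7a7*, a transporter of cationic amino acids, had an interaction of 1.92 (SE 1.61). Most members of this list had low values, so these medians carry little precision.

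Splicing, transcription and chromatin genes (10 assays) had a median of -0.11 for status and -0.15 for injection. For injection, 1 of the 10 had an unadjusted p under 0.05 (*Zfp553*), against 4 of all 69 assays (5.8%). Lipid, lysosome and glycosylation genes (6 assays) had medians of 0.069 and -0.017. *Dpm2*, a regulatory subunit of dolichol-phosphate mannose synthesis, had an injection difference of 0.23 (SE 0.14), and *Mtmr3*, a phosphoinositide phosphatase, a status difference of 0.19 (SE 0.12).

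Kinase signalling and cell cycle genes (7 assays) had medians of -0.020 for status and 0.025 for injection. *Mob3a*, a kinase adaptor, had an injection difference of -1.09 (SE 0.62), and *Akt1*, a kinase of growth factor signalling, a status difference of 0.20 (SE 0.14). Of 3 transporters, *Slc6a15*, a neuronal transporter of neutral amino acids, had a status difference of -0.33 (SE 0.20), and *Slco3a1* an interaction of 0.97 (SE 0.90).

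Genes were also divided by the disorder of the human orthologue. The 17 MDD orthologues had median differences of -0.020 for status and -0.024 for injection, and 0 had an unadjusted p under 0.05. The 33 SCZ orthologues had medians of -0.061 and -0.073. An unadjusted p under 0.05 was found for 1 of the 33 for status (*Gart*) and 4 of the 33 for injection (*Timm23*, *Zfp553* and *Tm2d1* among them). Over all 69 assays the counts were the same, 1 (1.45%) and 4 (5.8%), so every such assay is in this list, which holds 33 of the 69. With so few assays nothing was read from these counts about either list. Of the 2 genes of both, *Hist1h2al* had a status difference of -0.13, and *Nuak2* had too few reads for one. *Hist1h2al* is annotated as a processed pseudogene, and histone genes have near-identical copies, so its values may hold reads of other histone genes.

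PVN was next compared with the CA1 regions of the same mice, in a fit of 94 libraries with a mean for each label group in each region. Against dCA1, 0 of 69 assays passed an adjusted p of 0.1 (percent called 0%), and 4 (5.8%) had an unadjusted p under 0.05. The smallest p-values were those of *Lrrc25*, a myeloid membrane protein, at 0.83 (SE 0.37), *Spag9*, a scaffold of stress-activated kinases, at 0.17 (SE 0.084), and *Prmt5*, an arginine methyltransferase, at 0.25 (SE 0.12), with an adjusted p of 0.644 each. *Lrrc25* had a PVN median of 0.797, so its difference rests on few reads. It was 1.26 without the lower *Ociad2* range (adjusted p = 0.206).

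Against vCA1, 6 of 69 assays passed (8.7%), 5 of them higher in PVN and 1 lower. *Fth1* had a median of 57003 in PVN and 29789 in vCA1, a difference of 0.60 (SE 0.17, adjusted p = 0.0434). *Pitpnm2*, a phosphatidylinositol transfer protein, had 392 and 237, a difference of 0.70 (SE 0.21, adjusted p = 0.0434), and *Tmem176a* had 179 and 333, a difference of -0.70 (SE 0.22, adjusted p = 0.0434). *Nedd4l*, a ubiquitin ligase of ion channels (0.44), *Nr3c1* (0.33) and *Peli1* (0.43) were also higher in PVN (adjusted p = 0.0685 each). These calls depended on the fit. With the mouse as a block, 3 assays passed (*Fth1*, *Pitpnm2* and *Tmem176a*), and *Nedd4l*, *Nr3c1* and *Peli1* had adjusted p-values of 0.102, 0.102 and 0.140. With a pseudocount of 10, 9 assays passed, 5 higher and 4 lower in PVN, namely the same 6 and *Ccndbp1*, *Mob3a* and *Stambpl1*, which are named here after their values were seen.

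*Fth1*, *Pitpnm2*, *Tmem176a* and *Nedd4l* are also among the 7 assays whose PVN medians differed by more than 1 log2 unit between the *Ociad2* ranges, and the lower range holds 7 of 30 PVN and 16 of 32 vCA1 libraries. The part of these ranges in the called differences was not tested beyond leaving the libraries out. Within the upper range, *Fth1* had a median of 68178 in PVN and 46461 in vCA1, and *Tmem176a* 158 and 235. Medians of the other called assays lay closer, with *Pitpnm2* at 405 and 361, *Nedd4l* at 955 and 905, *Nr3c1* at 345 and 303, and *Peli1* at 385 and 314. Without the lower-range libraries of all 3 regions, 2 assays passed (*Hist1h2al* and *Stambpl1*, named here after their values were seen) and 0 of the 6 did. *Fth1* then differed by 0.38 (adjusted p = 0.215), *Tmem176a* by -0.44 (adjusted p = 0.229) and *Pitpnm2* by 0.43 (adjusted p = 0.374). *Nedd4l* differed by 0.16 (adjusted p = 0.374), *Nr3c1* by 0.20 (adjusted p = 0.376) and *Peli1* by 0.36 (adjusted p = 0.374). The libraries kept were also in the first fit, so the unchanged direction is no separate support. Rescaled to the same total, 14 assays passed with 2 higher in PVN, and the median difference of all assays moved from 0.023 to -0.12. Of the 6, *Fth1*, *Pitpnm2* and *Tmem176a* were among the 14, while *Nedd4l* fell to 0.28 (adjusted p = 0.143), *Nr3c1* to 0.17 (adjusted p = 0.344) and *Peli1* to 0.27 (adjusted p = 0.294).

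**Figure D5:**
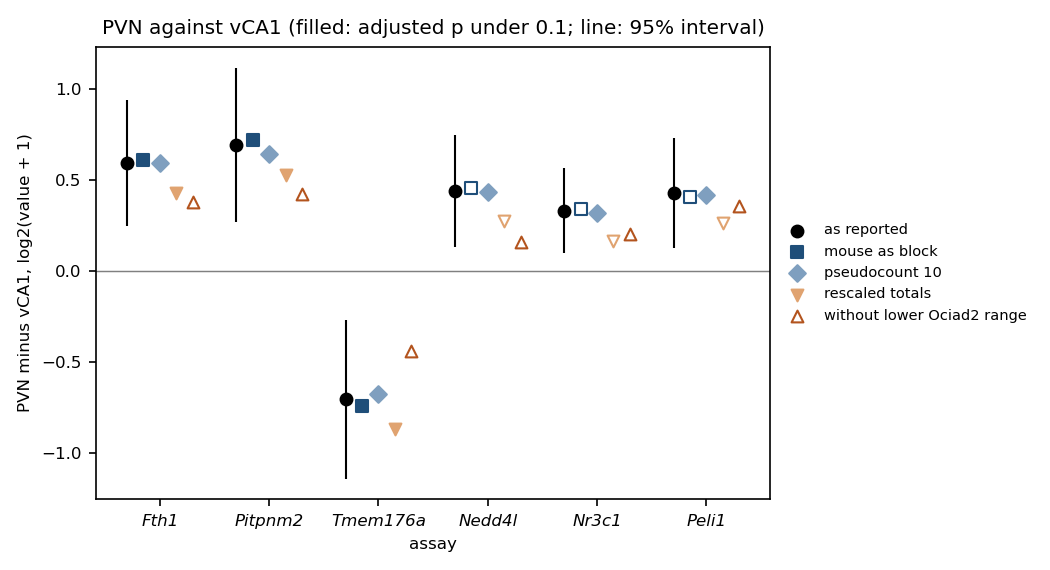
Difference between PVN and vCA1 on the log2(value + 1) scale for the 6 called assays as reported (circle, with the 95% interval) and under 4 other settings, filled where the adjusted p was under 0.1. Leaving out the libraries in the lower *Ociad2* range leaves 0 of the 6 called.

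Whether the label differences of PVN were unlike those of CA1 was tested directly. For status, 0 of 69 assays passed (percent called 0%), with 1 under an unadjusted p of 0.05 (1.45%). *Peli1* had a status difference of 0.40 in PVN, -0.28 in dCA1 and 0.0055 in vCA1, and PVN differed from the CA1 mean by 0.53 (SE 0.27, adjusted p = 0.994), or 0.30 without the lower *Ociad2* range. *Slc6a15* differed by -0.42 (SE 0.23), or -0.20 without that range, and *Rps2* by 1.59 (SE 0.95). For injection, 0 of 69 passed (percent called 0%), with 4 under an unadjusted p of 0.05 (5.8%). *Dpm2* differed by 0.47 (SE 0.18, adjusted p = 0.594), *Fan1* by 1.34 (SE 0.58) and *Zfp553* by -1.67 (SE 0.74), and the last 2 have a PVN median of 0. *Timm23*, with 0.43 in PVN, had injection differences of 0.11 in dCA1 and -0.073 in vCA1, and *Fkbp5* had 1.21, 0.26 and 0.18, none of which passed in its region. The *Timm23* difference in PVN exceeded the CA1 mean by 0.41 (95% interval -0.080 to 0.90; adjusted p = 0.862, limma). That of *Fkbp5* exceeded it by 0.99 (-0.72 to 2.71; adjusted p = 0.920, limma), and 0 lay within both intervals. For 42 of 69 assays the interval of the status comparison lay within 1 log2 unit of 0, and for 41 that of the injection comparison, so a larger difference between PVN and CA1 was not excluded for the rest.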

How the data were processed

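RNA of frozen tissue punches was measured with TruSeq Targeted RNA sequencing on a MiSeq, and region, status and injection were taken from the sample labels. The authors filtered reads with PRINSEQ, aligned them with BWA to the assay manifest and normalized them with DESeq2; the submitters' processing notes also name FastQC and mm10. The deposited values are a signal, namely reads per assay divided by a size factor, and are whole multiples of a step in each library (100% of values, tolerance 0.02), from which reads per library were computed. Values were used as log2(value + 1). limma 3.58.1 (R 4.3.3) was fitted across all 69 assays of the 30 PVN libraries with status, injection and their interaction, two-sided, with Benjamini-Hochberg adjustment and a threshold of 0.1. A second fit held PVN, dCA1 and vCA1. Summaries and plots were made in Python 3.11.15 (pandas 2.3.3; matplotlib 3.10.9), and the fits were tested on simulated data.

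Mice are shared between regions by their number. The reported fit between regions had no mouse block and treated libraries of the same mouse as independent. The mouse was added as a block in an alternative fit. Deviations of PVN from the group means correlated with those of the same mouse at a median of -0.087 in dCA1 and -0.038 in vCA1 (30 mice, 60 assays). Extraction and plate are not given per sample in the sources used here. Genes were named by rule: per term the 5 smallest p-values, called genes between regions, the highest, lowest and most variable assays, *Nr3c1*, *Hsp90aa1*, and up to 3 members of each list; some of these genes, and 1 list, are not reported here. The members, lists and rule were chosen with earlier results of these data known. Alternatives were other pseudocounts (0.1 and 10), assays with a mean value of at least 10, the 50 genes the study analysed, rescaled totals, library weights, a mean-variance trend, 5 residual principal components, other adjustments and leaving out mice. Leaving out shallow libraries or those in the lower *Ociad2* range, and the range as a term, were chosen after seeing the data.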

Additional observations from a re-analysis of the deposited data

Results flagged for a closer look

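Label groups were examined over 12 assays and the reads per library of PVN. In 7 of 52, 1 library lay apart from the rest of its group by Dixon's 95% criterion. That criterion assumes normal values, but it was applied without a log transform and also to assays mostly at 0. The count was therefore not set against a rate expected by chance. The MS naive library of mouse 105 (69462 reads) gave 3 of the 7, with *Peli1* at 1357 (the others 301 to 526.1), *Higd1a* at 1321 (701 to 906) and *Rela* at 31.9 (135 to 209). The Co inject library of mouse 249 (59451 reads, the fewest in PVN) had *Zfp641* at 193 (24.7 to 63.8). Low assays gave the other 3, namely *Zfp553* at 1.76 in Co inject mouse 237 (the others at 0) and at 16.9 in MS inject mouse 99 (0 to 2.76), and *Tnf* at 19.9 in MS naive mouse 107 (the others at 0).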

How the results depend on the processing

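Counts of called assays stayed at 0 for status and the interaction under every alternative and every left-out mouse. For injection the count was 1 (*Timm23*) with 5 residual principal components, ranged from 0 to 1 over 30 fits without 1 mouse each, and was 0 otherwise. Against vCA1 it was 3 with the mouse as a block (the pairing by animal), 14 with rescaled totals, 9 (5 higher in PVN) with a pseudocount of 10 and 2 without the lower *Ociad2* range; the block changed no other count. Signs turned for *Nr3c1* status with rescaled totals (0.026), *Hsp90aa1* injection with library weights (0.076) and *Nr3c1* interaction without libraries under 80000 reads (-0.054). Over left-out mice, *Nr3c1* status ranged from -0.078 to 0.043 and *Hsp90aa1* injection from -0.14 to 0.075, *Hsp90aa1* status from -0.31 to -0.13, *Nr3c1* interaction from -0.041 to 0.19 and *Hsp90aa1* interaction from -0.40 to 0.032. The cause was not tested. Within PVN no paired analysis was possible because each mouse gives 1 PVN library. Tests on counts and surrogate variables, planned as alternatives, were not run. The check of the unit that these required needs more low values per library than the panel holds. Reads recovered from the normalized values were used only for depth, read totals and the floor at 0. The 18 assays with medians under 100 had a larger spread (median SD 1.71 against 0.52 for the others), and the part of depth in it was not tested.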
